A study of Saccharomyces pastorianus with 12 samples.

Results

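The change from 8 h to 30 h of a brewery yeast propagation was measured by setting 3 arrays of 30 h samples against 3 arrays of 8 h samples. These 6 arrays were chosen by their titles from the 12 of the series, which also sampled 0 h and 4 h. The yeast was the lager strain CB11 of Saccharomyces pastorianus, a hybrid species, taken from a 140 hl propagation vessel seeded from one of 8 hl. The labels give the same conditions for every time. These are wort made from 80% malt and 20% maltose adjunct at 17° Plato, zinc at 0.5 mg/l, 20 °C and oxygen kept at 7 to 8 mg/l. They give no separate reading of gravity or zinc at 8 h or at 30 h. The groups therefore differed in hours since inoculation and in whatever had changed in the vessel by then, with no untreated culture alongside. The samples of a time carry the letters A, B and C, and nothing in the labels says that they came from separate propagations. P-values therefore reflect the scatter of these samples alone, and that scatter may be technical.

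Propagation is the aerated growth stage in which a brewery raises enough yeast to pitch a fermentation. Fast-growing yeast spends a large part of its transcription on ribosomal proteins, translation factors and glycolytic enzymes. As sugar or another nutrient runs down, cells are known to lower ribosomal protein transcripts and to raise genes for stress protection, for the use of ethanol and acetate, and for recycling of cell contents. In aerated wort with abundant sugar, brewing yeast still ferments, so the glycolytic and ethanol-forming enzymes are normally among its most abundant transcripts.

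Levels below are log2 signals after quantile normalisation of the 6 arrays, which makes them relative within an array. A change is the 30h mean minus the 8h mean on that scale, given ± its standard error from limma, with n = 3 arrays at each time. A gene was called, and is said to have risen or fallen, when its p, adjusted by Benjamini-Hochberg across all 5414 tested genes, was under 0.05. The arrays carry probes designed on Saccharomyces cerevisiae, so in the hybrid a signal sums whatever bound to them from either parental genome. Schizosaccharomyces pombe probe sets on the same arrays gave the background.

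The 6 arrays were usable but not equal. On the deposited scale the median S. cerevisiae gene read 52.9, 51.7 and 30.5 on the 8h arrays, against 53.3, 74.6 and 68.5 on the 30h arrays. Between 89.4% (8h C) and 99.0% (30h B) of tested genes exceeded the background of their array. The rank correlation of 2 arrays (Spearman's rho, across genes that are not independent replicates) was 0.887 to 0.918 within 8h, 0.901 to 0.939 within 30h and 0.841 to 0.906 between the times. The 3′ to 5′ signal ratio of ACT1, the actin gene, was 2.76, 4.07 and 3.38 at 8h and 2.69, 2.40 and 2.65 at 30h, so it was higher on every 8h array. The same ratio of WBP1 was 1.94, 0.948 and 0.888 at 8h and 1.01, 0.894 and 0.540 at 30h, so there the times overlapped. The part of RNA completeness in the results was not tested. The spread of log2 signals over genes was 1.41 to 1.47 (SD) on these arrays against 2.10 to 2.27 on the 0h and 4h arrays.

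Between 8h and 30h many cytosolic ribosomal protein genes fell and none rose, while outside them genes were called in both directions. The limma comparison called 56 genes higher (1.03% of those tested) and 123 lower (2.27%). Of the 123 that fell, 68 were ribosomal protein genes, which carry symbols starting RPL or RPS. Outside these, 56 of 5292 genes rose (1.06%) and 55 fell (1.04%), a balance that moved with the scaling: it was 194 and 8 on the unnormalised signals, 40 and 62 with quantile normalisation outside RPL and RPS, and 37 and 55 with cyclic loess. Each of the 179 called genes had its 3 arrays at 30h all above or all below its 3 arrays at 8h. As the genes were called on these same arrays, this separation is no separate support for the calls. Genes that were not called could separate as well, such as RPL23A with a change of -0.18. The share of all tested genes that separate is not given here. At an unadjusted p under 0.05 the counts were 476 higher and 426 lower. More than 2-fold changes were seen for 31 of the genes that rose and 95 of those that fell. In a bulk sample, a fall from fewer cells of a kind and a fall from less RNA per cell cannot be told apart.

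When 1 array was left out, the count of rises dropped by a larger share than the count of falls. Each such fit also has fewer arrays, and so less power to call a gene. Leaving out 1 array gave between 17 (without 30h B) and 36 (without 8h A) genes higher, and between 66 (without 8h B) and 114 (without 8h C) lower. It was below the full count by over 1.5 times for the rises without each of the 6 arrays, with 18 without 8h B, 31 without 8h C, 21 without 30h A and 35 without 30h C, and for the falls without 8h B or 30h B, with 78 without the latter. With the deposited signals left unnormalised, the median gene itself was 0.58 higher at 30h, and 194 genes were called higher and 26 lower.

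**Figure D1:**
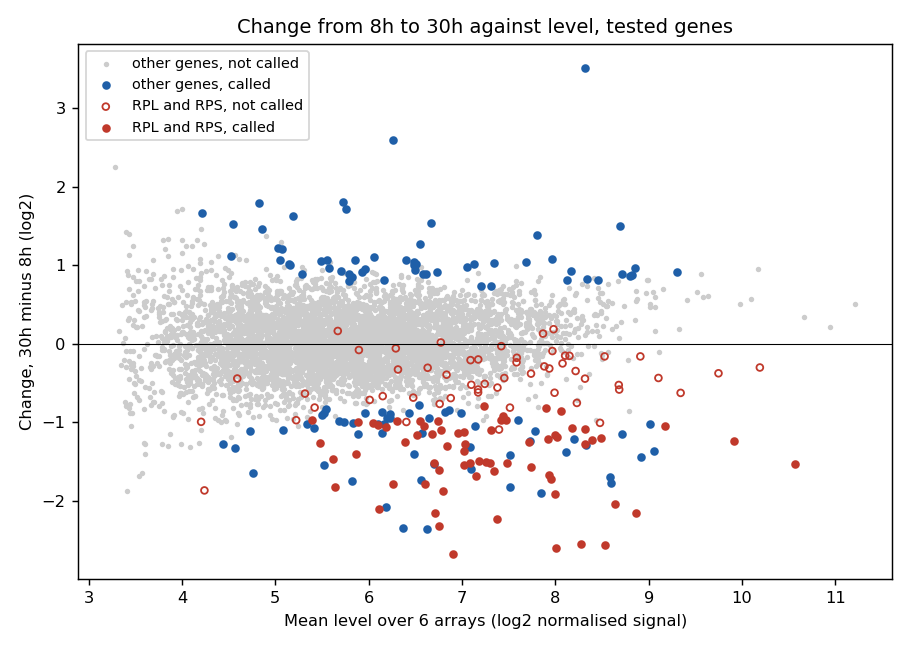
Each point is 1 tested gene, placed by its mean log2 normalised signal over the 6 arrays (horizontal) and its log2 change from 8h to 30h (vertical); red marks RPL and RPS genes and blue the called genes outside them, with open red circles for RPL and RPS genes that were not called. Of 122 RPL and RPS genes, 118 lie below 0, and the highest blue point is SIP18 at 3.51.

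Cytosolic ribosomal protein genes had a median change of -0.997 (quartiles -1.45 and -0.51), against 0.028 for all genes outside them and 0.018 for all tested genes. Of 122 tested, 68 fell (55.7%) and 0 rose, and 0 were higher even at an unadjusted p under 0.05. By subunit, 42 of 70 RPL genes of the large subunit fell and 26 of 52 RPS genes of the small subunit fell. The change was below 0 for 118 of 122, whereas 2603 of all 5414 tested genes were below 0. Without 8h B the number that fell was 41, and with the unnormalised signals it was 18, where their median was -0.47 and still 1.04 below that of all genes.

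The share of the summed S. cerevisiae signal that came from RPL and RPS probe sets was 12.1%, 12.9% and 8.72% at 8h and 5.22%, 5.18% and 4.94% at 30h. These groups did not overlap, and 8h C, the dimmest array, was the lowest of its time. The means were 11.2% ± 2.2 (SD, n = 3) and 5.11% ± 0.15 (SD, n = 3), for which the exact two-sided permutation test gave p = 0.1, the smallest value 3 against 3 arrays can give. Ranked among all S. cerevisiae probe sets of its array, tested or not, the median RPL or RPS probe set stood at the 96.2, 96.3 and 95.5 percentile at 8h. At 30h it stood at the 82.8, 80.3 and 82.8 percentile. The typical ribosomal protein transcript thus ranked lower on every 30h array than on any 8h array. Without 8h C the median change was -1.10.

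The 4 largest falls among them were those of RPS28A, RPL30, RPL24A and RPS31. RPL30, whose protein binds its own transcript and holds back its splicing, had levels of 9.43, 9.33 and 9.16 at 8h and of 6.80, 6.67 and 6.63 at 30h. These were tight sets with a wide gap between them. RPL30 fell by 2.60 ± 0.20 on the log2 scale, a level 6.08-fold lower at 30h (adjusted p = 4.49e-06, limma).

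RPS31 encodes a fusion of ubiquitin to a small-subunit protein, so its message supplies ubiquitin too. Its levels were 9.83, 9.66 and 9.17 at 8h and 7.20, 7.16 and 6.66 at 30h, array C being the lowest at each time. RPS31 fell by 2.55 ± 0.24 (adjusted p = 2.2e-05, limma). RPS28A had levels of 8.51, 8.93 and 7.28 at 8h and 5.39, 5.93 and 5.34 at 30h, with 8h C more than a log2 unit under the other 8h arrays but still above all 30h arrays. It fell by 2.68 ± 0.33 (adjusted p = 0.000289, limma).

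RPL24A measured 9.94, 10.37 and 9.12 at 8h and 7.51, 7.48 and 6.75 at 30h. Again 8h C was the lowest of its time, and the groups did not overlap. RPL24A fell by 2.56 ± 0.31 (adjusted p = 0.00022, limma). RPL3, a single-copy large-subunit gene named whatever its value, had levels of 8.09, 7.91 and 7.74 at 8h and 5.50, 5.65 and 5.62 at 30h, and fell by 2.33 ± 0.19 (adjusted p = 5.06e-06, limma). The calls of these 5 genes held in all 19 alternative analyses.

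Many yeast ribosomal proteins are encoded by a pair of near-identical genes, whose probe sets can bind each other's transcripts. Both copies were tested for 48 pairs: both fell in 14, 1 copy fell in 23 and neither was called in 11. The copies' changes were over 1 apart in 13 pairs. RPS28A changed by -2.68 and RPS28B by -0.77, RPL15A by -2.10 and RPL15B by -0.44, RPS25A by -1.73 and RPS25B by -0.16, and RPL17A by -1.52 and RPL17B by 0.13. The difference between copies was not tested, and part of a copy's signal may come from the other copy. Of 17 tested genes whose symbols carry no copy letter, 12 fell, as did 5 of 9 lettered genes whose other copy was not tested. Only 4 genes had a change above 0, RPS22A at 0.18, RPL22B at 0.16, RPL17B at 0.13 and RPS14B at 0.02, and none of these was called.

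**Figure D2:**
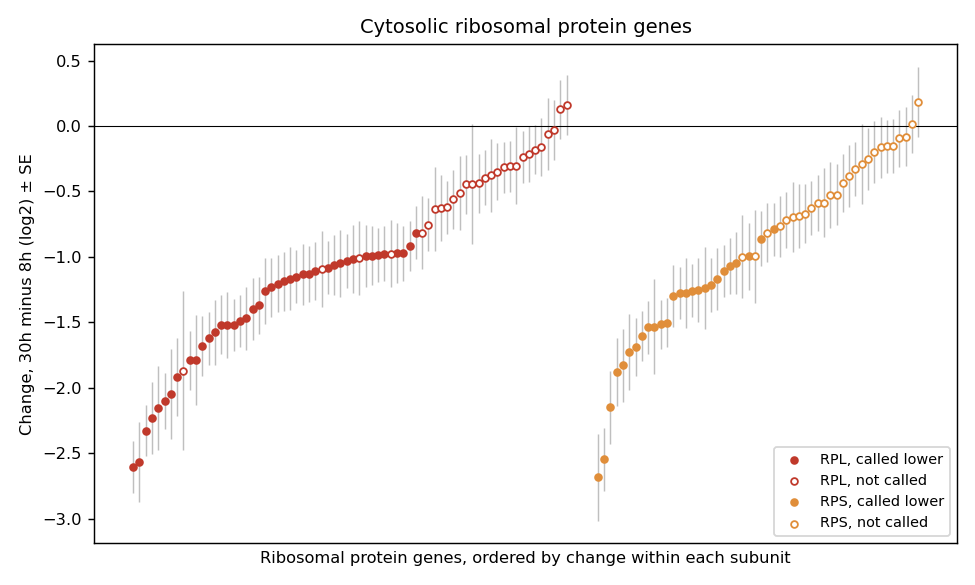
Log2 change from 8h to 30h of each of the 70 RPL and 52 RPS genes, ordered by size within a subunit, with bars of 1 limma standard error and filled circles for called genes. The 42 filled RPL and 26 filled RPS circles lie in the lower part of each curve, which runs without a break up to the 4 genes above 0.

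The remaining structural proteins of the ribosome, which carry other symbols, moved the same way. All 6 tested members of the stalk list fell, with a median of -1.64: the acidic stalk proteins RPP0, RPP1A, RPP1B, RPP2A and RPP2B, which recruit elongation factors, and ASC1, the yeast RACK1 on the small subunit. RPP0 had levels of 7.24, 7.18 and 7.24 at 8h and 5.43, 5.15 and 4.85 at 30h. All 8h arrays were almost equal and no 30h array came near them. RPP0 fell by 2.08 ± 0.21 (adjusted p = 3.99e-05, limma).

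RPP1A had levels of 7.93, 7.57 and 7.13 at 8h and 5.38, 5.29 and 4.93 at 30h and fell by 2.34 ± 0.23 (adjusted p = 3.99e-05, limma). RPP1B measured 7.39, 7.34 and 7.57 at 8h and 5.75, 5.64 and 5.68 at 30h and fell by 1.74 ± 0.19 (adjusted p = 9.12e-05, limma). In both genes each 30h array lay below each 8h array. ASC1, which changed by -0.88 ± 0.20 (adjusted p = 0.0235, limma), lost its call without 8h A, B or C and without 30h B or C (adjusted p up to 0.128, limma). On the unnormalised signals 2 of the 6 were called.

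STM1, whose protein clamps idle ribosomes and preserves them, had levels of 6.46, 6.40 and 6.01 at 8h and 4.98, 4.23 and 5.02 at 30h. Both groups stood about a log2 unit apart at their closest. STM1 fell by 1.54 ± 0.26 (adjusted p = 0.00274, limma), a call lost only on the unnormalised signals.

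The machinery that builds ribosomes showed few calls, as did all genes outside RPL and RPS (1.06% higher and 1.04% lower). The biogenesis factors cleave and modify rRNA in the nucleolus and put the subunits together. Of 149 tested, 1 fell and 0 rose, and the median was -0.003. At an unadjusted p under 0.05, 9 were higher and 11 lower. The member of the list that fell was RRB1, whose protein escorts newly made Rpl3 (the product of RPL3) to the nucleolus, at -0.90 ± 0.22 (adjusted p = 0.0364, limma). Its call ended without any single one of the 6 arrays (adjusted p up to 0.114, limma), and also with all 12 arrays. SDO1, a maturation factor of the large subunit that the list does not hold and that was picked after its value was seen, changed by -1.33 ± 0.33 (adjusted p = 0.039, limma). It was above background on 2 of 3 arrays at 30h, and its call ended without any array other than 30h C (adjusted p up to 0.157, limma). The nucleolar protein gene NSR1 was at -0.21 ± 0.22. For RNA polymerase I and III, which transcribe rRNA and tRNA, 0 of 19 subunit genes were called by limma, 0 being higher and 2 lower at an unadjusted p under 0.05, and the median was -0.04. Mitochondrial ribosomal proteins, 70 tested, had 0 calls by limma (2 higher and 6 lower at an unadjusted p under 0.05) and a median of -0.09.

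Translation factors fell in part. Of 35 tested, 6 fell and 0 rose, with a median of -0.23. TEF4, a subunit of the elongation factor 1 complex, had levels of 7.17, 7.24 and 7.15 at 8h and 5.82, 5.54 and 6.01 at 30h. It was over a log2 unit lower on every 30h array, and it fell by 1.40 ± 0.20 (adjusted p = 0.00078, limma). TEF2, for elongation factor 1A, had levels of 9.30, 9.50 and 10.12 at 8h and 8.56, 8.04 and 8.00 at 30h and fell by 1.44 ± 0.27 (adjusted p = 0.00585, limma). Its probe set shares probes with a near-identical copy, TEF1, as does that of EFT2, for elongation factor 2, with EFT1.

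EFT2 measured 7.79, 7.76 and 7.67 at 8h and 6.59, 6.33 and 6.35 at 30h. Each time formed a narrow band, and EFT2 fell by 1.32 ± 0.19 (adjusted p = 0.000861, limma). SUP35, the translation termination factor, changed by -1.28 ± 0.31 (adjusted p = 0.0368, limma), a call lost without each array in turn other than 30h C (adjusted p up to 0.117, limma). The other two that fell were YEF3, the fungal elongation factor 3, at -1.04 ± 0.20, and TIF35, an initiation factor 3 subunit, at -0.84 ± 0.22. TIF35 lost its call without any one of the arrays (adjusted p up to 0.189, limma). Leaving out 1 array left 4 to 6 of the factors called, the 4 without 8h A, B or C or 30h A or B, and the unnormalised signals left 1. The factors' share of summed signal was 0.898%, 0.890% and 0.95% at 8h and 0.691%, 0.659% and 0.646% at 30h (exact two-sided permutation p = 0.1, n = 3 arrays a time).

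Aminoacyl-tRNA synthetases, which charge tRNAs with amino acids, had a list median of -0.56. Of 18 tested, 2 fell, FRS1 for phenylalanine and TYS1 for tyrosine, and 0 rose, while 14 were below 0 and 9 were lower at an unadjusted p under 0.05. FRS1 had levels of 6.94, 7.15 and 6.51 at 8h and 5.71, 5.97 and 6.28 at 30h, with 30h C close under 8h C. Its change was -0.88 ± 0.23 (adjusted p = 0.0472, limma). Leaving out 8h A, 8h B or 30h B left 0 of the 18 called, and leaving out 30h A also ended the FRS1 call (adjusted p up to 0.205, limma). ILS1, THS1 and GUS1, for isoleucine, threonine and glutamate, had changes of -1.05, -0.97 and -0.88 that were not called.

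Glycolysis and ethanol formation had more called falls than any other list outside the ribosome. Of 20 tested genes 8 fell and 0 rose, with a median of -0.42, and these were PGI1, FBA1, TPI1, TDH3, GPM1, ENO2, PDC1 and ADH1. They run from the second step of the pathway to ethanol. Their share of summed signal, counted over the whole list, was 1.27%, 1.44% and 1.68% at 8h and 0.890%, 0.749% and 0.678% at 30h, with no overlap (exact two-sided permutation p = 0.1, n = 3 arrays a time). The 3 shares of signal, for ribosomal proteins, glycolysis and translation factors, were the only quantities tested in this way.

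PDC1, the main pyruvate decarboxylase, had levels of 8.61, 8.78 and 9.02 at 8h and 7.48, 6.66 and 6.55 at 30h. Even the lowest 8h array was above the highest 30h array by more than a log2 unit. PDC1 fell by 1.91 ± 0.25, 3.75-fold lower at 30h (adjusted p = 0.000378, limma). FBA1, the aldolase, had levels of 9.37, 9.30 and 9.79 at 8h and 8.09, 7.65 and 7.39 at 30h, again without overlap. It fell by 1.78 ± 0.24 (adjusted p = 0.000548, limma).

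PGI1, phosphoglucose isomerase, had levels of 6.88, 6.56 and 6.64 at 8h and 5.39, 4.90 and 4.53 at 30h and fell by 1.75 ± 0.24 (adjusted p = 0.000558, limma). TDH3, the main glyceraldehyde-3-phosphate dehydrogenase, was the most scattered of the group, with levels of 8.69, 9.37 and 10.25 at 8h and 8.06, 7.29 and 7.86 at 30h. Array 8h A came within a log2 unit of 30h A. TDH3 fell by 1.70 ± 0.33 (adjusted p = 0.00909, limma), and the call ended without 8h B or 30h B (adjusted p up to 0.0572, limma), which left 7 of the list called.

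ADH1, the alcohol dehydrogenase that makes ethanol, had levels of 8.25, 8.44 and 8.35 at 8h and 7.25, 6.86 and 7.22 at 30h. No 30h array came within a log2 unit of an 8h array, and ADH1 fell by 1.24 ± 0.20 (adjusted p = 0.00234, limma). ENO2, TPI1 and GPM1, for enolase, triose phosphate isomerase and phosphoglycerate mutase, fell by 1.39 ± 0.22, 1.28 ± 0.22 and 1.15 ± 0.22. On the unnormalised signals 3 of the 8 were called.

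Genes of the steps that commit sugar to the pathway were not called. The hexose kinase genes HXK1, HXK2 and GLK1 changed by -0.05 ± 0.19, 0.24 ± 0.22 and 0.15 ± 0.21, and the phosphofructokinase subunits PFK1 and PFK2 by -0.28 ± 0.22 and -0.36 ± 0.21. CDC19, the main pyruvate kinase, was at -0.39 ± 0.22 and PYK2, the minor one, at 0.36 ± 0.22. Within pairs of isoenzymes the changes were unlike in size: TDH1 at -0.01 against TDH3 at -1.70, ENO1 at -0.45 against ENO2 at -1.39, and PDC5 at -0.35 and PDC6 at 0.01 against PDC1 at -1.91. These differences between genes were not tested. ADH2, which turns ethanol back to acetaldehyde, changed by 0.09 ± 0.23.

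**Figure D3:**
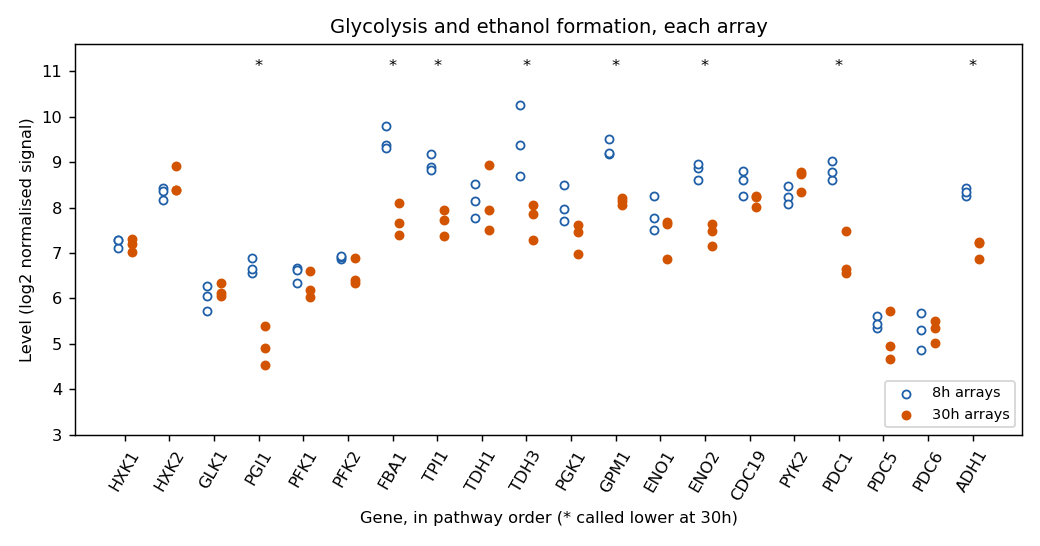
Log2 normalised signal on each 8h array (open blue) and each 30h array (filled orange) of the 20 tested glycolysis and ethanol genes, in pathway order, with a star over the 8 that fell. The starred genes show a gap between the colours, as for PDC1 at 8.61 to 9.02 against 6.55 to 7.48, and the kinase genes HXK1, HXK2 and GLK1 do not.

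Neighbouring carbohydrate genes showed a single call. PGM2, phosphoglucomutase, which links glucose-6-phosphate to glycogen, trehalose and galactose metabolism, had levels of 5.65, 5.84 and 5.27 at 8h and 3.72, 4.46 and 3.64 at 30h, without overlap. It fell by 1.65 ± 0.30 (adjusted p = 0.00571, limma), a call that ended without 8h B (adjusted p = 0.0629, limma). It was the only one of 19 trehalose and glycogen genes to be called, and the list's median was -0.32 with 14 below 0. TPS1, trehalose-6-phosphate synthase, was at -0.41 ± 0.23 and GSY1, a glycogen synthase, at 0.26 ± 0.36.

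Sugar entry genes were not called, in short lists and with shares of 1.06% higher and 1.04% lower outside RPL and RPS. Among 16 hexose transporters and sensors limma called 0, with 4 higher and 0 lower at an unadjusted p under 0.05 and a median of -0.16. HXT1 and HXT3, the low-affinity carriers, changed by -0.25 ± 0.21 and -0.26 ± 0.24, and HXT5 and HXT7, carriers known from slow growth and low glucose, by -0.02 ± 0.24 and -0.34 ± 0.33. Among 10 genes of maltose and sucrose use limma called 0, with 3 higher and 0 lower at an unadjusted p under 0.05. Their median was 0.29, with the maltose permease gene MAL31 at 0.31 ± 0.21, the maltase gene MAL32 at -0.10 ± 0.24 and the invertase gene SUC2 at 0.60 ± 0.23 (adjusted p = 0.206, limma). The MAL and HXT families hold close copies, and probe sets of HXT7 and MAL32 share probes between members.

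RGI1, a gene known to be induced by respiratory growth, stood among the falls. Its levels were 8.95, 8.52 and 7.83 at 8h and 7.00, 6.99 and 5.82 at 30h, array C being the lowest at each time. RGI1 fell by 1.83 ± 0.32 (adjusted p = 0.0043, limma), and this held in all 19 alternatives.

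The largest rise of all was that of SIP18, which encodes a very hydrophilic protein known to protect yeast during drying and salt stress. SIP18 had levels of 6.92, 6.61 and 6.16 at 8h and 10.03, 10.58 and 9.60 at 30h. Every 30h array was more than 2 log2 units above every 8h array, which took SIP18 from 6.56 ± 0.38 (SD, n = 3) to 10.07 ± 0.49 (SD, n = 3). It rose by 3.51 ± 0.27, 11.4-fold (adjusted p = 4.49e-06, limma). YMR175W-A, an uncharacterised reading frame whose systematic name places it beside SIP18 on its chromosome, had levels of 3.93, 3.62 and 4.26 at 8h and 5.79, 5.66 and 5.71 at 30h. It was above background on 1 of 3 arrays at 8h and on all at 30h, and it rose by 1.79 ± 0.27 (adjusted p = 0.0012, limma).

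ECM4, for a glutathione transferase of the omega class, had levels of 5.22, 4.90 and 4.80 at 8h and 7.45, 7.85 and 7.38 at 30h. Both groups were narrow and lay more than 2 log2 units apart. ECM4 rose by 2.59 ± 0.21, 6.01-fold (adjusted p = 5.06e-06, limma). ART10, for an arrestin-like adaptor of a ubiquitin ligase, had levels of 4.95, 4.67 and 4.86 at 8h and 6.91, 6.67 and 6.31 at 30h and rose by 1.80 ± 0.22 (adjusted p = 0.000289, limma).

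SPG4 belongs to a set of genes needed to survive heat in stationary phase. Its levels were 4.92, 5.05 and 4.71 at 8h and 7.13, 6.83 and 5.88 at 30h, with 30h C the closest to the 8h arrays. SPG4 rose by 1.71 ± 0.28 (adjusted p = 0.00253, limma). YDR034W-B, an uncharacterised gene, had levels of 7.53, 8.19 and 8.11 at 8h and 9.57, 9.72 and 9.02 at 30h and rose by 1.49 ± 0.26 (adjusted p = 0.00368, limma).

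ECM15 had levels of 7.01, 7.39 and 6.95 at 8h and 8.68, 8.86 and 7.95 at 30h. Its groups did not overlap, and ECM15 rose by 1.38 ± 0.25 (adjusted p = 0.00491, limma). Calls of SIP18, ECM4, ART10, SPG4, YDR034W-B and ECM15 held in all 19 alternatives, and that of YMR175W-A in the 18 that tested it.

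General stress genes as a group went both ways. The heat shock and stress list had 37 tested members, of which 4 rose and 3 fell, around a median of 0.04. Besides SIP18 the rises were SPI1, a cell wall protein known from stationary phase, at 1.27 ± 0.25 (adjusted p = 0.00918, limma), MSC1 at 1.06 ± 0.24 and HSP12, a membrane-protecting small heat shock protein, at 0.89 ± 0.22 (adjusted p = 0.0364, limma). HSP12 had levels of 8.13, 8.38 and 8.29 at 8h and 9.33, 9.11 and 9.03 at 30h, without overlap. Its call held in 7 of 19 alternatives and ended with median centring, cyclic loess, quantile normalisation outside RPL and RPS, all 12 arrays and the unnormalised signals (adjusted p up to 0.22, limma). Its mean level lies in the range of 8 to 9, where the median gene outside RPL and RPS was itself 0.30 higher at 30h. Leaving out 1 array left between 1 (without 8h B) and 4 of the rises called. SPI1 lost its call without 8h B (adjusted p = 0.0747, limma), MSC1 without 8h A, 8h B, 30h A or 30h B (up to 0.126), and HSP12 without each array other than 30h C (up to 0.12).

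Falls in the stress list were those of SSE1 and HSC82, both chaperones, and PNC1. SSE1, an Hsp110 that recharges Hsp70, had levels of 8.08, 7.89 and 7.73 at 8h and 5.75, 6.57 and 6.58 at 30h. All 30h arrays were over a log2 unit lower, and SSE1 fell by 1.60 ± 0.24 (adjusted p = 0.00117, limma). PNC1, the nicotinamidase of NAD salvage, had levels of 6.46, 6.53 and 6.39 at 8h and 5.35, 5.45 and 5.14 at 30h and fell by 1.15 ± 0.20 (adjusted p = 0.00428, limma). HSC82, the constitutive Hsp90, changed by -0.87 ± 0.21 (adjusted p = 0.0378, limma), and the call ended without any array other than 8h C (adjusted p up to 0.147, limma). HSP26, a small heat shock protein gene, was at 0.53 ± 0.33 and was not called, with 30h A at 5.75 and the other 30h arrays at 4.59 and 4.61 among the 8h values of 4.26 to 4.67.

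**Figure D4:**
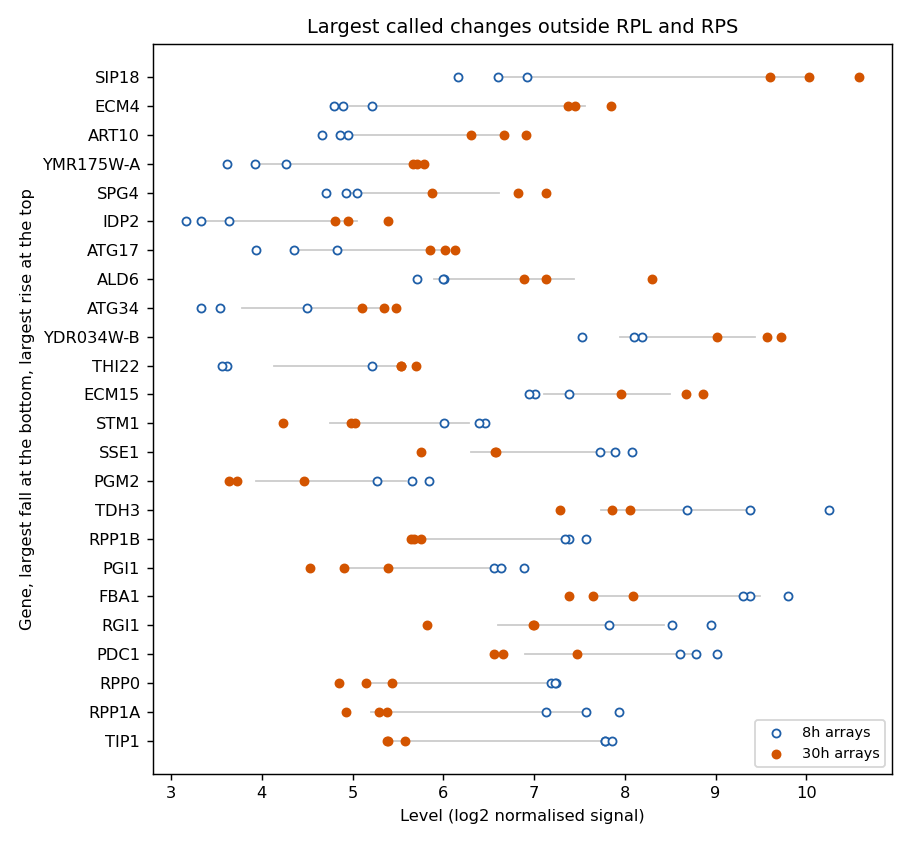
Log2 normalised signal on each 8h array (open blue) and each 30h array (filled orange) of the 12 largest rises and 12 largest falls called outside RPL and RPS, with a grey line joining the means of the times. The colours do not overlap in any gene shown, because only genes without overlap were chosen, and SIP18 at the top spans 6.16 to 10.58.

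A few genes on the list of gluconeogenesis and the glyoxylate cycle rose, a list that also holds the NADPH-forming ALD6 and IDP2. Of its 19 tested genes, 4 rose and 0 fell, with a median of 0.25 and 15 above 0. ALD6, which oxidises acetaldehyde to acetate in the cytosol and yields NADPH, had levels of 6.004, 5.99 and 5.71 at 8h and 8.30, 6.88 and 7.13 at 30h. Array 30h A was well above the other two, all of which exceeded the 8h arrays. ALD6 rose by 1.54 ± 0.30 (adjusted p = 0.00841, limma).

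IDP2, the cytosolic isocitrate dehydrogenase that yields NADPH, had levels of 3.33, 3.64 and 3.17 at 8h and 4.95, 5.39 and 4.80 at 30h. It was not above background on any 8h array and was above it on all 30h arrays, so only a bound holds: it was at least 2.03-fold higher at 30h (adjusted p = 0.0122, limma), where each dim array counts at the higher of its background and its own signal. The call ended without 30h B (adjusted p = 0.132, limma). PCK1, the first enzyme of gluconeogenesis, had levels of 5.27, 5.38 and 5.52 at 8h and 6.13, 6.30 and 6.15 at 30h and changed by 0.80 ± 0.20 (adjusted p = 0.0454, limma). MDH2, the cytosolic malate dehydrogenase, changed by 0.73 ± 0.19 (adjusted p = 0.05, just under the threshold, limma). MDH2 was also not called with median centring, cyclic loess or quantile normalisation outside RPL and RPS. PCK1 and MDH2 each lost the call without any single array (adjusted p up to 0.201 and 0.203, limma), so that 1 (without 30h B) or 2 (without any other array) of the list remained called. FBP1 was at 0.21 ± 0.35, MLS1 at -0.44 ± 0.27, CIT2 at 0.74 ± 0.23 and ACS1 at 0.60 ± 0.20, none of them called.

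Respiratory chain and ATP synthase genes had a positive median of 0.21, with 28 of 36 above 0. The adjusted test called 1, ATP15, and 0 lower, and 13 were higher at an unadjusted p under 0.05. ATP15, a subunit of the ATP synthase stalk, had levels of 7.22, 7.44 and 6.83 at 8h and 8.12, 8.40 and 8.08 at 30h. It rose by 1.04 ± 0.22 (adjusted p = 0.0138, limma), which did not hold without 8h C or 30h B (adjusted p up to 0.0787, limma). CYC1, cytochrome c, was at 0.82 ± 0.24 (adjusted p = 0.0851, limma) and COX6 at 0.20 ± 0.22. The unnormalised signals, whose median gene was 0.58 higher at 30h, called 8 of the list higher. In the TCA cycle limma called 0 of 16, with 2 higher and 1 lower at an unadjusted p under 0.05, a median of -0.12 and CIT1, citrate synthase, at -0.24 ± 0.19.

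Autophagy genes held a pair of the 12 largest rises. Of 35 tested genes of autophagy and vacuolar proteases 2 rose and 0 fell, with a median of 0.14. ATG17, a scaffold at the site where autophagosomes start, had levels of 4.35, 4.82 and 3.93 at 8h and 5.85, 6.02 and 6.13 at 30h. It was above background on 2 of 3 arrays at 8h and on all at 30h, and it rose by 1.63 ± 0.26 (adjusted p = 0.00217, limma). ATG34, a receptor that delivers vacuolar enzymes during starvation, had levels of 3.54, 3.33 and 4.496 at 8h, above background on 1 array, and 5.48, 5.10 and 5.35 at 30h. Its change was 1.52 ± 0.34 (adjusted p = 0.022, limma), and the call ended without each array in turn other than 8h C (adjusted p up to 0.0985, limma), which left ATG17 alone. No autophagy gene was called with genes required above background on all 6 arrays, since neither was then tested.

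A few nutrient genes rose, beside a share of 1.06% for all genes outside RPL and RPS. In the thiamine list 2 of 14 rose and 0 fell, with a median of 0.24 and 13 above 0. THI21, a kinase of thiamine synthesis, had levels of 6.25, 6.06 and 6.11 at 8h and 7.13, 6.90 and 7.06 at 30h, and its change was 0.89 ± 0.19 (adjusted p = 0.018, limma). THI22, a related protein, had levels of 5.22, 3.62 and 3.56 at 8h, above background on 1 array, and 5.53, 5.70 and 5.53 at 30h, so that 8h A sat close under the 30h arrays. Its change was 1.46 ± 0.38 (adjusted p = 0.0472, limma). Leaving out 8h B, 8h C, 30h A or 30h B ended both calls (adjusted p up to 0.188, limma), and without 30h C the list held 1 call.

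ZPS1, a gene induced when zinc is scarce, was the 1 riser of 15 zinc response genes. Its levels were 6.77, 7.11 and 6.60 at 8h and 7.56, 7.99 and 8.02 at 30h, and its change was 1.03 ± 0.22 (adjusted p = 0.0142, limma). The zinc carrier gene ZRT1 was at 0.24 ± 0.28. SUL1, a sulfate permease, was the 1 riser of 25 genes of sulfate assimilation, at 0.96 ± 0.22 (adjusted p = 0.0266, limma). ZPS1 was no longer called without 8h C or 30h B (adjusted p up to 0.0766, limma), and SUL1 without arrays B or C of either time (up to 0.171). The SUL1 call also ended with all 12 arrays.

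Cell wall genes went both ways. Of 25 tested cell wall mannoprotein genes 2 rose and 4 fell, with a median of -0.13. TIP1, a mannoprotein known for induction by temperature shock, had the largest fall outside the RPL and RPS genes, with levels of 7.78, 7.78 and 7.86 at 8h and 5.57, 5.39 and 5.38 at 30h. Both sets were very tight and over 2 log2 units apart. TIP1 fell by 2.36 ± 0.19, 5.12-fold lower (adjusted p = 5.03e-06, limma).

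CCW12, an abundant wall protein of growing cells, had levels of 9.60, 9.60 and 10.03 at 8h and 8.73, 8.22 and 8.17 at 30h and fell by 1.37 ± 0.25 (adjusted p = 0.00501, limma). CWP2 and CIS3 changed by -1.21 ± 0.28 and -0.95 ± 0.21 (adjusted p = 0.0238 for each, limma). The rises were SPI1 and SCW4, a wall glucanase, at 1.10 ± 0.22 (adjusted p = 0.0103, limma). Without 8h B neither rise was called (adjusted p = 0.0747 and 0.0753, limma). CWP2 lost its call without each array other than 30h A (adjusted p up to 0.0794, limma) and CIS3 without 8h A, 8h C, 30h A or 30h B (up to 0.105), which left 2 falls without 8h A, 8h C or 30h B.

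Histone genes, transcribed while DNA replicates, were all below 0. Of 9 tested 2 fell, with a median of -0.56. HTA2, for histone H2A, had levels of 8.14, 8.34 and 8.18 at 8h and 6.83, 6.61 and 6.95 at 30h. It was over a log2 unit lower on each 30h array and fell by 1.42 ± 0.20 (adjusted p = 0.000566, limma). HHF1, for histone H4 and with probes shared with its copy, was at -0.97 ± 0.22 (adjusted p = 0.0226, limma), and leaving out 8h A, 8h B, 30h B or 30h C ended the call (adjusted p up to 0.14, limma). HHT1 and HHT2, for histone H3, were at -0.81 and -0.84 and were not called.

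Other cell division genes were mostly not called, as were most genes outside RPL and RPS (1.06% rose and 1.04% fell). Of 28 cyclins and cell cycle regulators 1 fell, SWI6, a subunit of the factors that drive transcription at the start of the cycle, at -0.995 ± 0.25 (adjusted p = 0.0443, limma). The G1 cyclin gene CLN2 was at 0.74 ± 0.38. Of 11 daughter cell separation genes 1 fell, SCW11 at -1.02 ± 0.25 (adjusted p = 0.0388, limma), with the chitinase gene CTS1 at -0.68 ± 0.29. The SWI6 call ended without each array other than 30h A (adjusted p up to 0.154, limma) and the SCW11 call without each array other than 30h C (up to 0.124). Among 45 DNA replication genes limma called 0, with 3 higher and 3 lower at an unadjusted p under 0.05, and the median was 0.12.

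Lipid and oxygen-linked genes gave few calls, beside 1.06% higher and 1.04% lower for all genes outside RPL and RPS. Among 32 genes of sterol synthesis and uptake limma called 0, with 1 higher and 9 lower at an unadjusted p under 0.05 and a median of -0.16; ERG3 was at -0.52 ± 0.24. ACC1, which makes malonyl-CoA for fatty acids, was the 1 faller of 17 fatty acid synthesis genes, at -0.95 ± 0.21 (adjusted p = 0.018, limma), and lost its call without 30h C or without A or B of 8h (up to 0.0691). OLE1, the oxygen-requiring fatty acid desaturase, was at -0.38 ± 0.21. TIR1, a wall protein of cells short of oxygen, was the 1 faller of 18 hypoxic genes, at -1.01 ± 0.23 (adjusted p = 0.0243, limma), a call lost without 30h A or without B or C of 8h (up to 0.119). Seripauperin genes, a family of near-identical wall protein genes, had the highest list median, 0.42, with 0 of 13 called by limma and 1 higher at an unadjusted p under 0.05. This median was not set against the upward shift of bright genes outside RPL and RPS.

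Several groups showed no call at all. Among all tested genes outside RPL and RPS 1.06% rose and 1.04% fell. At those shares a list of this size would hold few calls or none. Limma called 0 of 34 beta-oxidation and peroxisome genes, 0 of 34 proteasome genes, 0 of 28 oxidative stress genes, 0 of 33 genes of nitrogen source use and 0 of 21 phosphate genes. At an unadjusted p under 0.05 these lists had 1, 2, 3, 2 and 5 members higher and 0, 3, 1, 1 and 1 lower. PHO84, the phosphate carrier, was at 0.13 ± 0.21 and GAP1, the general amino acid permease, at 0.10 ± 0.25. Of 64 amino acid biosynthesis genes 1 fell, LYS12 at -1.10 ± 0.24 (adjusted p = 0.0197, limma), no longer called without 30h A or without B or C of 8h (up to 0.106). CUP1-1, a copper metallothionein gene with probes shared with its copy, was the 1 faller of 28 iron and copper genes, at -1.03 ± 0.23 (adjusted p = 0.0223, limma), and ADE17, of purine synthesis, the 1 faller of 36 nucleotide synthesis genes, at -0.87 ± 0.22 (adjusted p = 0.0444, limma). These calls ended without 8h B, 30h B or 30h C, and for ADE17 also without 8h A (adjusted p up to 0.134 and 0.214, limma). Both also ended with all 12 arrays and on the unnormalised signals. ACT1 was at -0.10 ± 0.22, and the polyamine carrier gene TPO2 at -0.34 ± 0.19.

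The lists of other cell states gave 1 call between them, where 1.06% of all genes outside RPL and RPS rose and 1.04% fell. Among 34 mating and haploid genes limma called 0, with 1 higher and 1 lower at an unadjusted p under 0.05 and a median of 0.18. Of 60 genes of meiosis and sporulation 1 rose, GAS4, a spore wall enzyme, at 0.81 ± 0.20 (adjusted p = 0.041, limma), and the call ended without any single array (adjusted p up to 0.133, limma) and with median centring, cyclic loess, quantile normalisation outside RPL and RPS, all 12 arrays and the unnormalised signals. The list's median was 0.08. Outside both lists, and picked after their values were seen, HMRA1, of the silent mating-type cassette, changed by 1.08 ± 0.27 and SPS22, a sporulation gene, by 1.12 ± 0.29 (adjusted p = 0.0434 and 0.047, limma). SPS22 was above background on 2 of 3 arrays at 8h. HMRA1 was not called without 8h A, 8h C, 30h A or 30h B, nor with median centring or cyclic loess, and SPS22 not without any single array nor with median centring (adjusted p up to 0.162 and 0.168, limma).

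**Figure D5:**
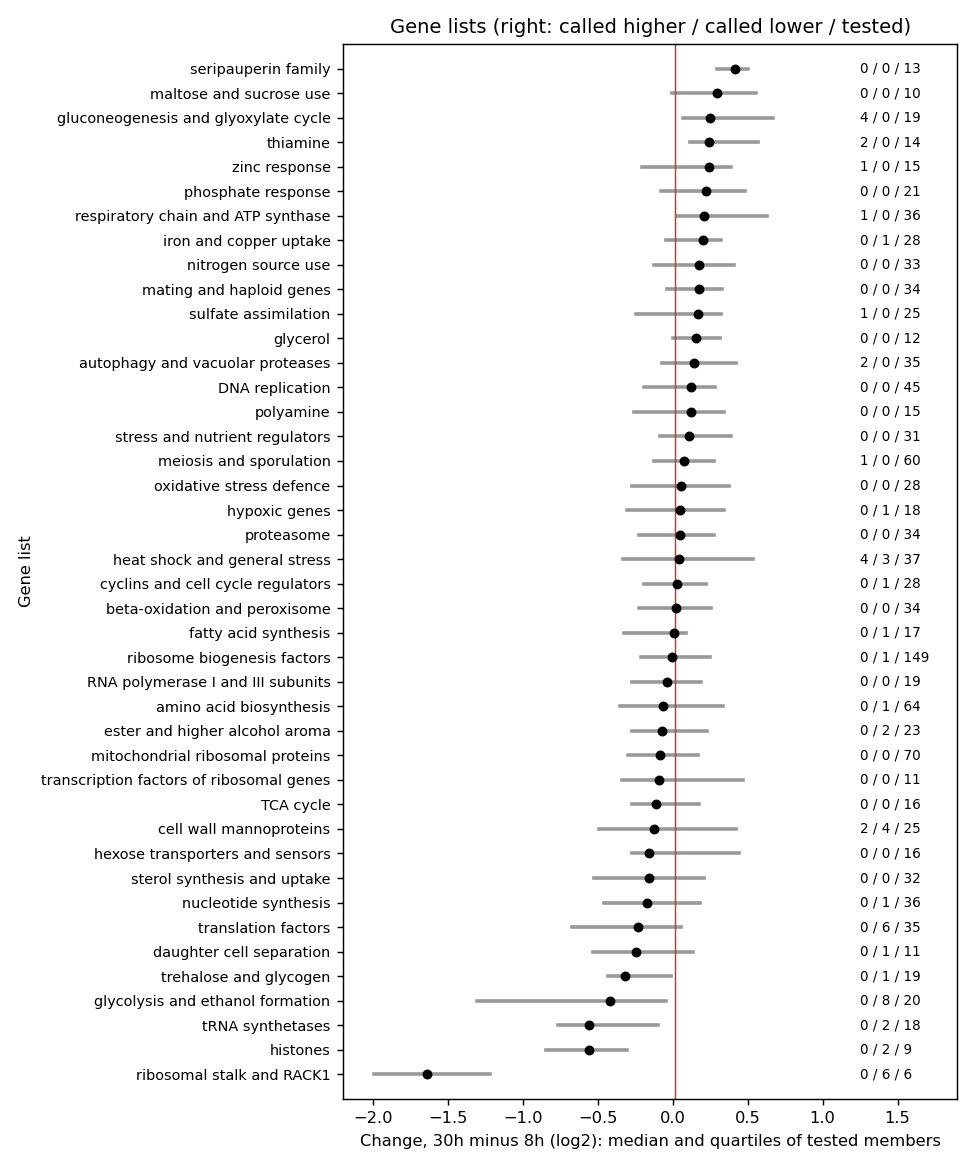
Median (dot) and quartiles (bar) of the log2 change from 8h to 30h over the tested members of the 42 gene lists, ordered by median, with the red line at the median of all tested genes, 0.018; the numbers at the right are members called higher, called lower and tested. The stalk list at -1.64, histones, tRNA synthetases and glycolysis lie lowest, and the seripauperin family lies highest at 0.42.

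On the normalised scale, brighter genes outside the ribosome shifted slightly upward, which bears on the size of any single change. Among genes outside RPL and RPS the median change was -0.01 for levels up to 5, 0.01 for 5 to 6, 0.03 for 6 to 7, 0.10 for 7 to 8, 0.30 for 8 to 9 and 0.50 above 9, the last group holding 23 genes. RPL and RPS genes in the same level ranges had medians from -1.05 to -0.63. In the range of 8 to 9, FBA1, TDH3 and TEF2 fell while SIP18 and YDR034W-B rose, all picked after their values were seen. Quantile normalisation gives every array the same distribution of signals. Its part in the shift of bright genes, and in these changes, was not tested. Quantile normalisation with RPL and RPS genes left out of the fitting gave 40 genes higher and 134 lower.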

How the data were processed

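The deposited intensity values, 1 linear signal per probe set and array, came from GCOS 5.0 and MAS5 per the submitters' processing notes; scaling and filters are not given in the sources used here. Of 10928 probe sets, 5685 named 1 S. cerevisiae gene and 4916 1 S. pombe gene through a platform table that can be old; 46 named several, 68 none and 213 were controls. One probe set stood for each of 5635 genes (no shared-probe ending first, then the brightest). The log2 signals of the 6 arrays were quantile-normalised over S. cerevisiae probe sets with no pseudocount, and 221 genes with a mean at or below the 95th percentile of S. pombe means (a signal of 10.2) were left out, leaving 5414.

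Tests used R 4.3.3 and limma 3.58.1 (lmFit, eBayes with trend, 4 residual degrees of freedom), two-sided with Benjamini-Hochberg adjustment. The code was also run on simulated data with independent noise. That simulation held no correlated or unequally noisy arrays and no shift with level, so it is no support for the calls. No arrays held identical values, and the number of arrays limits the precision. Above background means over the 95th percentile of the S. pombe signals on that same array.

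The members and the 42 gene lists, written from textbook knowledge of yeast, were chosen with earlier results of these data known. Named genes are called genes with non-overlapping arrays among the 12 largest rises and 12 largest falls outside RPL and RPS and the 4 largest each way within them (none rose), up to 4 members of each list described with the largest change, and 32 genes named whatever their value, of which FLO1 and TEF1 had no tested probe set. The other called list members, glycolytic genes and ribosomal protein copies named were chosen after their values were seen. The alternatives changed the normalization, pseudocount (16 and 50), filters, variance model, array weights, arrays fitted and block.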

Additional observations from a re-analysis of the deposited data

How the results depend on the processing

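All 179 called genes kept their direction in each of the 19 alternatives that tested them, and 33 stayed called throughout (17 RPL and RPS genes, 9 rises and 7 falls outside them); 72 stayed called with each array left out in turn. On deposited signals without normalization, 194 genes were higher and 26 lower, 8 of them outside RPL and RPS and 18 within, against 56, 123, 55 and 68. That setting shifts the median gene by 0.58, and 88.2% of its calls were higher against 31.3%. Outside RPL and RPS, rises numbered 37 with cyclic loess and 37 with no filter on dim genes, 21 with eBayes without trend and 118 with array weights, and falls 84 with all 12 arrays, 34 with eBayes without trend and 89 with array weights. The cause of these differences was not tested. Leaving out 1 array gave 17 to 36 rises and 66 to 114 falls in all, 25 to 47 falls outside RPL and RPS and 41 to 67 within. All 3 counts of falls were lowest when 8h B was dropped and highest when 8h C was; for falls outside, 31 without 8h A and 29 without 30h B were also over 1.5 times below 55. 0 RPL and RPS genes rose in any setting. Where the text names only left-out arrays for a gene, its call may also have ended in other alternatives.

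With the replicate letter as a block (replicate block), 152 genes were higher and 175 lower, 96 of the latter outside RPL and RPS. Deviations of same-letter arrays correlated over genes at 0.182 (A), -0.036 (B) and 0.25 (C), and those of different-letter arrays at -0.338 to 0.177. The values of A and C were thus the highest of all, and that of B was not. Whether the letters pair the samples was not tested, and the main fit left them out.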

Other observations

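Some called genes outside the lists and the naming rule, chosen here after their values were seen, had related roles. SPG1 and SPG3, named like SPG4 for survival at high temperature in stationary phase, changed by 1.04 ± 0.24 and 0.91 ± 0.23 (adjusted p = 0.0266 and 0.0416, limma). SPG3 had levels of 8.91, 8.85 and 8.79 at 8h and 9.79, 9.83 and 9.66 at 30h, without overlap. The SPG3 call held in 7 of 19 alternatives and ended with median centring, cyclic loess, quantile normalisation outside RPL and RPS, all 12 arrays and the unnormalised signals (adjusted p up to 0.459, limma). Its mean level is above 9, where the median gene outside RPL and RPS was 0.50 higher at 30h. SPG1 was no longer called without 30h A or without B or C of 8h (adjusted p up to 0.121, limma), nor with all 12 arrays or eBayes without trend. The SPG3 call ended without any single array (up to 0.155). GTO1, an omega-class glutathione transferase like the product of ECM4, changed by 1.004 ± 0.24 (adjusted p = 0.0309, limma), a call lost without each array other than 8h C (up to 0.161). It was also lost with all 12 arrays. INH1, which inhibits the ATP synthase when it runs backward, changed by 1.21 ± 0.27 (adjusted p = 0.0238, limma), a call lost without 8h C or any 30h array (up to 0.0851).

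Of 15 tested subunit genes of the vacuolar proton pump, counted after 2 of them were seen among the falls, VMA1 and VMA2 fell and 0 rose. The other 13 were not called and ranged from -0.78 to 0.53, and the median of the 15 was -0.33. VMA2 had levels of 6.93, 6.78 and 6.42 at 8h and 5.48, 5.83 and 5.39 at 30h, without overlap, and fell by 1.14 ± 0.22 (adjusted p = 0.00792, limma), a call lost without 8h B (up to 0.059). VMA1 changed by -0.88 ± 0.22 (adjusted p = 0.041, limma), lost without 8h A, 8h B, 30h B or 30h C (up to 0.144). EGD1, of the complex that meets new polypeptides at the ribosome, changed by -0.95 ± 0.21 (adjusted p = 0.018, limma), lost without the same 4 arrays (up to 0.109).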
